A study of Homo sapiens with 17 samples.

Results

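The genes described here are the CDK inhibitors and the RB family, the brakes on the G1 phase of the cell cycle, in human BJ fibroblasts. They were taken as the entries of the deposited expression table whose gene symbol was one of 10 listed names. The table holds 9699 transcripts, 1 for each gene, and 8 of the 10 listed genes had an entry: the CIP/KIP inhibitors CDKN1A (p21, transcript ENST00000448526) and CDKN1B (p27, ENST00000396340), the INK4 inhibitors CDKN2A (the INK4A/ARF locus, ENST00000361570), CDKN2C (p18, ENST00000262662) and CDKN2D (p19, ENST00000393599), and the pocket proteins RB1 (ENST00000267163), RBL1 (p107, ENST00000373664) and RBL2 (p130, ENST00000262133). CDKN1C (p57) and CDKN2B (p15) had no entry and were not analysed here.

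The study compared transcript levels (RNA-Seq of poly(A) RNA) with ribosome-protected fragments (Ribo-Seq, a measure of how many ribosomes sit on a transcript) across states of growth and arrest. BJ is an established line of human foreskin fibroblasts, and all the cells were immortalized with telomerase (hTERT), a transgene that the controls carry too. Proliferating cells grew under normal conditions with serum. Quiescent cells were depleted of serum. Pre-senescent and senescent cells carried RASG12V, an oncogenic RAS whose activity is switched on by tamoxifen, and were kept in 4-OHT-tamoxifen for 5 days and for 14 days. Transformed cells carried p53-KD, p16INK4A-KD and SV40 small T, and were retrovirally transduced with RASG12V. The transformed cells therefore carried 4 introduced elements at a time besides hTERT, and their RAS was delivered by another vector than the inducible RAS of the senescent cells. Whether the proliferating cells also carried the inducible RAS is not given in the sources used here. The number of elements in which they differed from the transformed cells is therefore not known. Levels of HRAS and of the estrogen receptor gene ESR1 are given below, and whether they come from such a construct was not tested.

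The 17 libraries were reported as 12 columns, 6 for each assay. Of these columns, 5 combine 2 replicate libraries and 7 hold 1 library, so each state had a single value per assay and sequencing run, and none of the differences below has a replicate check or a p-value. Proliferation was measured in both sequencing runs: run 1 also held quiescence and pre-senescence, and run 2 also held senescence and transformation. The RNA-Seq libraries of run 1 were paired-end and those of run 2 were not. The paper reports a batch effect of the sequencing run and made its comparisons within a batch. Values against the control of the other run therefore include this difference between runs. Each state was set against the proliferating column of its own run, and a difference of 2-fold or more (1 on the log2 scale) was counted as a call. As a yardstick, the log2 differences between the proliferating columns of the 2 runs had an SD of 0.62 for RNA-Seq, 0.84 for Ribo-Seq and 0.63 for translational efficiency (TE, Ribo-Seq level over RNA-Seq level) across all transcripts. For single members, the size of a difference is also given in units of that SD taken over the 500 transcripts nearest in level (the between-run spread). Levels are in FPKM, a read count scaled by transcript length and sequencing depth. The table has a floor of 1.0 FPKM in place of lower values, so a fold against a value at the floor is a lower bound. In bulk cultures, fewer cells of a kind and less RNA per cell cannot be told apart.

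Progress from G1 into S phase is driven by cyclin D with CDK4 or CDK6 and by cyclin E with CDK2. These kinases phosphorylate the pocket proteins, which otherwise hold the E2F transcription factors and, in the case of p107 and p130, take part in the DREAM complex that silences cell-cycle genes in resting cells. INK4 proteins bind CDK4 and CDK6 and keep the cyclin away, whereas CIP/KIP proteins bind assembled cyclin-CDK complexes. CDKN1A is a classical p53 target, CDKN2A is known for its induction by oncogenic RAS in fibroblasts, and CDKN1B is known mainly for control through translation and degradation of its protein.

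Several checks on the labels bear on what follows. In Ribo-Seq, the libraries titled as senescence and as the run 2 proliferating control carry each other's condition in a second label; the titles, which the column names follow, were used here. With that assignment, the log2 differences of RNA-Seq and Ribo-Seq across all transcripts had a Pearson r of 0.83 for senescence and 0.84 for transformation, against 0.70 for quiescence and 0.44 for pre-senescence in run 1. HRAS RNA was 2415, 1254 and 2102 FPKM in proliferation, quiescence and pre-senescence of run 1 and 1284, 2087 and 311.5 FPKM in proliferation, senescence and transformation of run 2, where the transformed cells had the lowest level of all columns although they were transduced with RASG12V. ESR1 RNA, the estrogen receptor gene, was 19.22, 9.31 and 15.86 FPKM in run 1 and 101.9, 144.2 and 1.00 FPKM in run 2, with the transformed column at the floor. RNA of TERT, the immortalizing gene, was 9.91, 3.39 and 11.95 FPKM in run 1 and 4.29, 19.12 and 48.85 FPKM in run 2, so the introduced genes were not at 1 level across the cultures. All 12 fibroblast markers examined had an entry, with VIM at 2956 FPKM or more in every RNA-Seq column, but COL1A1 RNA ranged from 51.57 FPKM in senescence to 1328 FPKM in run 2 proliferation. In RNA, 9 of the 12 were lower by 2-fold or more in senescence (median log2 difference -1.62), against 20.1% of all transcripts. In pre-senescence 5 were lower by as much, against 3.77%. In transformation 4 were lower and 1 was higher, against 10.2%. In quiescence 2 were higher and none was lower, against 6.38%. Between the proliferating columns, 6 were higher by 2-fold or more in run 2 than in run 1 (median 1.34), against 7.83%. The shares of all transcripts count both directions. Of 5 endothelial markers none had an entry. Of 6 leukocyte markers only CD14 (at most 1.67 FPKM in RNA) and CD68 (38.32 to 132.25 FPKM in RNA) had one. Of 7 epithelial markers KRT8 (4.84 to 18.82 FPKM in RNA), KRT18 (84.53 to 257.47 FPKM in RNA) and KRT19 had one. KRT19 RNA was at 39.76 FPKM in run 2 proliferation against 1.00 FPKM in run 1. The part of these marker differences in the members' levels was not tested.

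CDKN2A, a targeted gene, did not follow its label in RNA against the control of its own run. Its RNA level in the library labelled as p16INK4A knockdown was 12.64 FPKM against 6.75 FPKM in proliferation of the same run, 1.87-fold higher, while its Ribo-Seq level was 5.51 against 8.92 FPKM, 1.62-fold lower. Against proliferation of run 1, at 17.19 FPKM, its RNA level was the lower one, at -0.44 on the log2 scale, so the direction in RNA depends on the control. The locus makes p16INK4A and ARF from different first exons and in different reading frames of shared exons, the table gives 1 transcript for it, and whether that transcript stands for p16INK4A, ARF or both is not given in the sources used here. CDKN2A and its neighbour CDKN2B are alike over part of their sequence, and what the unique alignment did to reads from such stretches was not measured here. Statements on CDKN2A below concern this entry, and the transformed column is called by its label.

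Promoter sequences are shown for the members with the widest span of RNA levels, to give the letters on which E2F and the general factor SP1 are known to act. They are the 150 bases just before the start of transcription in RefSeq (GRCh38.p14), read 5′ to 3′ on the strand of the gene, with capitals marking E2F letters in RBL1 and GC boxes in the others (the distal CDKN2A stretch has none). All 8 members matched the promoter table. The 2 CDKN2A stretches belong to its 2 starts, the distal one leading into the first exon of ARF and the proximal one into that of p16INK4A. They lie at chr20:37095998-37096147 on the minus strand for RBL1, chr6:36678564-36678713 on the plus strand for CDKN1A, chr1:50968556-50968705 on the plus strand for CDKN2C (1 of 3 starts in the table), and chr9:21995325-21995474 and chr9:21974858-21975007, both on the minus strand, for CDKN2A.
RBL1: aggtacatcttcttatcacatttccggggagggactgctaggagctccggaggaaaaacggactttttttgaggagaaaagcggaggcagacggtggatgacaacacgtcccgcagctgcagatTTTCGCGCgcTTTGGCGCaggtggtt
CDKN1A: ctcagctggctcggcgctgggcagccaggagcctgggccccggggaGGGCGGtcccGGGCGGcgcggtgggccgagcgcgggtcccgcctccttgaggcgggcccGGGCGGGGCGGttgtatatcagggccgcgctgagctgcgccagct
CDKN2C: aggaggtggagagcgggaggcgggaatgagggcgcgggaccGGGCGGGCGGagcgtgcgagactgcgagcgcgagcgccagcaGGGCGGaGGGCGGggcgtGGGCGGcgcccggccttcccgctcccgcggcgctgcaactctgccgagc
CDKN2A distal: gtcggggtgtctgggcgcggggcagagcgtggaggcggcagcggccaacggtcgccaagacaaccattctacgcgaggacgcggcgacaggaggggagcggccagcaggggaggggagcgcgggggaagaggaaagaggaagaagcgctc
CDKN2A proximal: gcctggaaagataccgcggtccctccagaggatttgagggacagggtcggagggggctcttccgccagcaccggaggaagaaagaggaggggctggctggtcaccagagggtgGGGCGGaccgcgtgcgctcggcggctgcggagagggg

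The E2F search used the letters TTTCCCGC, TTTCGCGC, TTTGCCGC and TTTGGCGC on both strands of the window from 250 bases before to 50 bases after each start. The only RB1 window in the table lies at an internal start, so the main start of RB1 was not searched. In the windows searched, RBL1 was the only member with a match, at TTTCGCGC from -26 to -19 and TTTGGCGC from -16 to -9, counted from the start as 0 with bases before it as negative. Such letters stood in 3.31% of all 35116 windows, in at least 1 window of 3.99% of genes, and in the windows of 9 of 14 S-phase E2F target genes with a match in the table. GC boxes (GGGCGG, both strands) stood in 45% of all windows, in those of 48.3% of genes and in those of 6 of the 8 members. CDKN1A had 4 of them, the first base of each at -104, -94, -45 and -40, and the latter pair share a base. CHR letters (TTTGAA or TTCGAA, both strands), the element through which DREAM acts on mitotic genes, stood in 16.4% of all windows, in those of 19.5% of genes, in 10 of 12 G2/M genes, and in RBL2 alone among the members, where they lay after the start, from 24 to 29. A match describes the letters only.

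CDKN1A was the most abundant inhibitor in every column of both assays. Its RNA level was 80.77 FPKM in proliferation, 128.7 FPKM in quiescence and 106.8 FPKM in pre-senescence in run 1, and 171.6 FPKM in proliferation, 814.4 FPKM in senescence and 80.30 FPKM in transformation in run 2. Its Ribo-Seq level in the same order was 129.0, 195.1, 145.0, 222.8, 547.8 and 85.98 FPKM. Senescence stood far above the other 5 columns in both assays, where CDKN1A ranked 55 of 9699 transcripts in RNA and 257 in Ribo-Seq, and in RNA the remaining columns spanned little more than the gap between the proliferating cultures, which was 2.12-fold.

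CDKN1B, which inhibits CDK2 complexes in resting cells, had RNA levels of 12.83, 10.61 and 7.52 FPKM in proliferation, quiescence and pre-senescence, and of 17.39, 5.21 and 10.52 FPKM in proliferation, senescence and transformation. Its Ribo-Seq levels were 70.30, 44.47 and 20.31 FPKM in run 1, and 25.91, 5.91 and 16.53 FPKM in run 2. Proliferation had the highest level within each run in both assays, and senescence had the lowest of all columns. The proliferating columns themselves differed, since Ribo-Seq was 2.71-fold lower in run 2 while RNA was 1.36-fold higher, so the TE of CDKN1B was 5.48 in run 1 and 1.49 in run 2. Because of that gap, the main values for CDKN1B are those within a run.

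CDKN2A RNA was 17.19, 30.61 and 14.23 FPKM in proliferation, quiescence and pre-senescence, and 6.75, 27.94 and 12.64 FPKM in proliferation, senescence and the column labelled transformed. Its Ribo-Seq level was 13.00, 33.05 and 7.05 FPKM in run 1, and 8.92, 6.33 and 5.51 FPKM in run 2. Quiescence was high in both assays, whereas senescence was high in RNA only. The RNA of the proliferating columns differed by 2.55-fold, run 2 being the lower, which is the column that senescence was set against.

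CDKN2C, an INK4 inhibitor active in dividing and differentiating cells, had RNA levels of 21.49, 11.03 and 6.98 FPKM in run 1. In run 2 it had 17.35 FPKM in proliferation, the floor of 1.00 FPKM in senescence and 9.32 FPKM in transformation. Its Ribo-Seq levels were 13.63, 7.47 and 5.28 FPKM in run 1 and 6.60 FPKM in run 2 proliferation, with senescence and transformation both at the floor. Proliferation was therefore the highest state in each run and each assay, and CDKN2C was the only member at the floor in more than 1 column. A TE could not be read for CDKN2C in senescence, where both of its levels were at the floor. In transformation, with only Ribo-Seq at the floor, its TE was at most 0.1073, against 0.3804 in run 2 proliferation.

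CDKN2D, the fourth INK4 protein, had RNA levels of 14.96, 12.72 and 7.33 FPKM in run 1 and of 11.84, 6.59 and 7.23 FPKM in run 2. Its Ribo-Seq levels were 28.75, 24.32 and 4.68 FPKM, and 11.91, 5.73 and 3.82 FPKM. All 3 RAS states, with or without arrest, lay below the proliferating column of their run in both assays, and quiescence lay close to it.

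RB1, the pocket protein that binds the activating E2F factors, was the steadiest member in RNA. Its RNA level was 22.41, 18.06 and 20.87 FPKM in run 1 and 25.39, 18.39 and 18.58 FPKM in run 2, a span of 1.41-fold over all columns. Its Ribo-Seq level was 20.59, 14.54 and 13.45 FPKM, and 30.24, 29.60 and 25.29 FPKM, a span of 2.25-fold that mainly set the runs apart.

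RBL1, the pocket protein whose own gene is a known E2F target, had RNA levels of 9.59, 5.79 and 6.81 FPKM in run 1, and of 7.15 FPKM in proliferation, the floor of 1.00 FPKM in senescence and 6.17 FPKM in transformation. Its Ribo-Seq levels were 15.54, 5.37 and 6.42 FPKM, and 7.85, 1.63 and 8.26 FPKM. Senescence was the low column in both assays, and transformation stayed near proliferation.

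RBL2, the pocket protein that prevails in resting cells, had RNA levels of 8.50, 11.42 and 7.07 FPKM in run 1 and of 11.32, 5.28 and 10.63 FPKM in run 2. Its Ribo-Seq levels were 3.37, 3.86 and 3.13 FPKM, and 3.58, 2.21 and 4.11 FPKM. RNA was highest in quiescence and in run 2 proliferation, senescence was the lowest column in both assays, and the TE of RBL2 stayed between 0.316 and 0.443 in all columns.

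**Figure D1:**
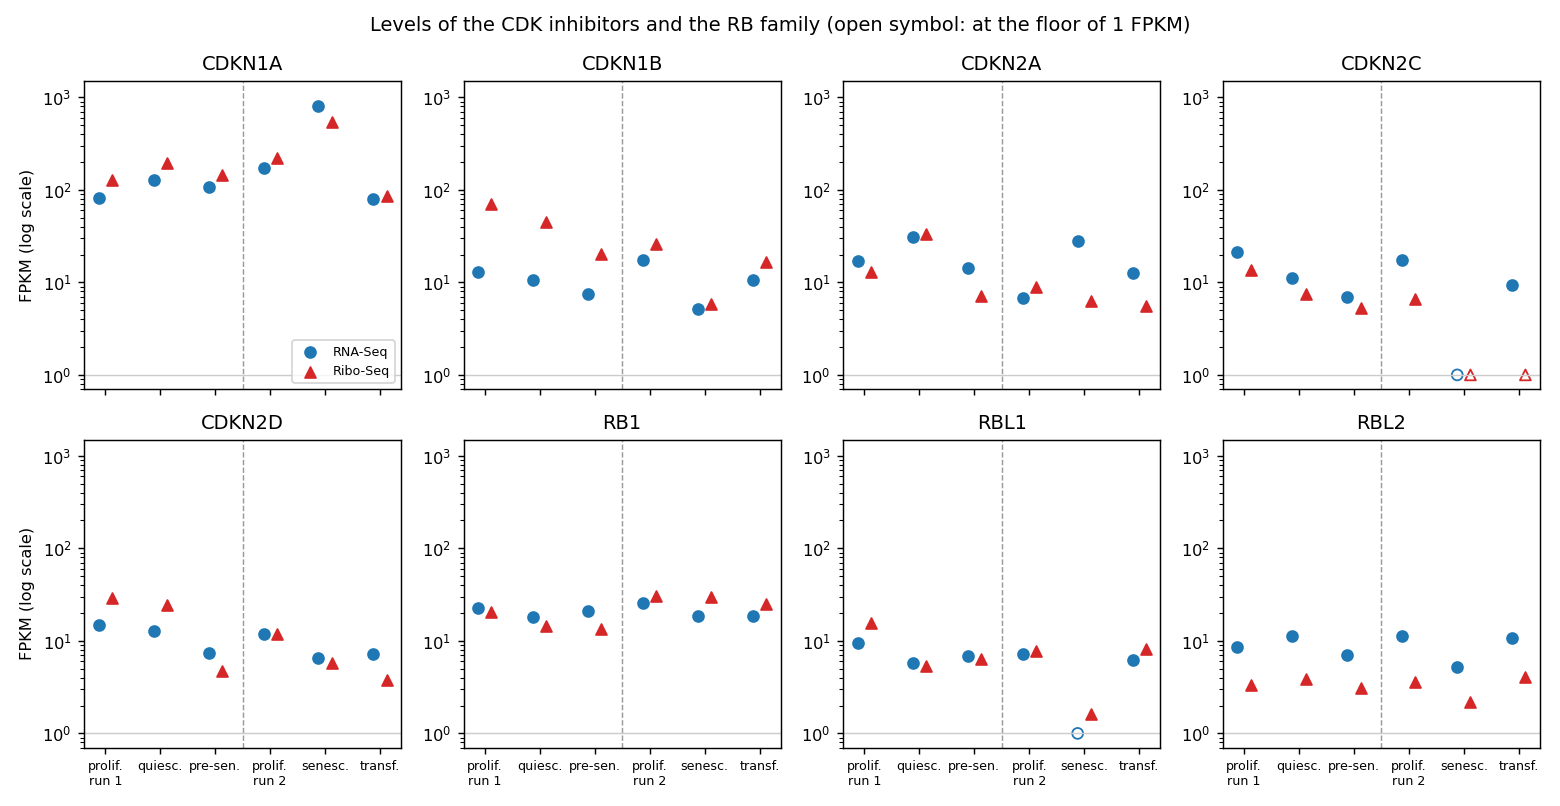
RNA-Seq (circles) and Ribo-Seq (triangles) levels of the 8 members in FPKM on a log axis, by column, with run 1 left and run 2 right of the dashed line and open symbols at the floor of 1.0 FPKM. CDKN1A in senescence reaches 814.4 FPKM in RNA, CDKN2C and RBL1 RNA drop to the floor there, and RB1 RNA stays between 18.06 and 25.39 FPKM.

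In quiescence, none of the 8 members moved by 2-fold in RNA, and 6.38% of all transcripts did. CDKN2A (0.83 on the log2 scale) and CDKN1A (0.67) were the highest against proliferation and CDKN2C the lowest (-0.96, ranking 270 from the bottom of 9699). Against the proliferating column of run 2, CDKN2A RNA was at 2.18 and CDKN1A RNA turned to -0.42. RBL2, the resting-cell pocket protein, was 1.34-fold higher, and RBL1 was 1.66-fold lower. In Ribo-Seq, 2 of the 8 members passed 2-fold, against 17.1% of all transcripts: CDKN2A was 2.54-fold higher and RBL1 2.89-fold lower. With the control of run 2, the Ribo-Seq difference of CDKN2A was 1.89 on the log2 scale and that of RBL1 -0.55, short of 2-fold. None of the members passed 2-fold in TE, which 7.89% of all transcripts did, and CDKN2A (0.51) and RBL1 (-0.81) had the largest differences in either direction. No difference in quiescence exceeded 2 between-run spreads in either assay or in TE.

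In pre-senescence, after 5 days of RAS, 2 of the 8 members passed 2-fold in RNA, against 3.77% of all transcripts. Both were INK4 inhibitors and lower: CDKN2C by 3.08-fold, ranking 45 from the bottom, and CDKN2D by 2.04-fold. CDKN1A was 1.32-fold higher and CDKN2A 1.21-fold lower in RNA, so neither passed 2-fold against this control. Against the proliferating column of run 2 both directions turned, with CDKN2A at 1.08 on the log2 scale, past 2-fold, and CDKN1A at -0.68. In Ribo-Seq, 4 members passed 2-fold and all were lower, against 17.4% of all transcripts in both directions: CDKN2D by 6.14-fold, CDKN1B by 3.46-fold, CDKN2C by 2.58-fold and RBL1 by 2.42-fold. The differences of CDKN2D and CDKN1B were 3.20 and 2.80 between-run spreads, those of CDKN2C and RBL1 were 1.55 and 1.62, and that of CDKN2C RNA was 2.95. CDKN2D and CDKN1B were also the 2 members that passed 2-fold in TE, at -1.59 and -1.02, against 14.5% of all transcripts. Against the proliferating column of run 2, the Ribo-Seq difference of CDKN2D was -1.35, while those of CDKN1B (-0.35), CDKN2C (-0.32) and RBL1 (-0.29) were short of 2-fold. With that control the TE difference of CDKN2D was -0.66, that of CDKN1B turned to 0.86, and CDKN2D RNA was at -0.69. The median log2 difference of the members was -0.38 in RNA, -1.08 in Ribo-Seq and -0.56 in TE, and that of all transcripts was 0.02, -0.10 and -0.13.

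In senescence, after 14 days of RAS, 6 of the 8 members passed 2-fold in RNA, against 20.1% of all transcripts. CDKN1A was 4.75-fold higher, 78 from the top of all transcripts, and CDKN2A 4.14-fold higher, 107 from the top. The other 4 were lower: CDKN2C at least 17.4-fold, RBL1 at least 7.15-fold, CDKN1B 3.34-fold and RBL2 2.14-fold. RB1 was 1.38-fold and CDKN2D 1.80-fold lower. The members thus split within both families: p21 and the INK4A/ARF transcript were higher while p27 and p18 were lower, and p107 and p130 were lower while RB1 was within 2-fold. In between-run spreads the differences were 3.71 for CDKN1A, 3.56 for CDKN2A, 2.98 for CDKN1B and 1.72 for RBL2. Against the proliferating column of run 1, CDKN1A was at 3.33 on the log2 scale but CDKN2A at only 0.70 and RBL2 at -0.69, both short of 2-fold. Senescence moved many transcripts, and by a cut-off scaled to the spread of all differences at a like level, 3 members passed (CDKN1A, CDKN2A and CDKN2C).

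The Ribo-Seq levels in senescence followed RNA for most members but not for CDKN2A. In all, 5 of the 8 members passed 2-fold in Ribo-Seq, against 27.6% of all transcripts: CDKN1A was 2.46-fold higher, and CDKN2C (at least 6.60-fold), RBL1 (4.82-fold), CDKN1B (4.38-fold) and CDKN2D (2.08-fold) were lower. No member passed the cut-off scaled to all differences at a like level. CDKN2A was 1.41-fold lower in Ribo-Seq although higher in RNA, so its TE was 0.227 against 1.32, a log2 difference of -2.54 (3.53 between-run spreads) that ranked 15 from the bottom of 9699. The same difference was -1.74 against the proliferating column of run 1. The Ribo-Seq levels behind -2.54 were 6.33 against 8.92 FPKM. This TE sets a level over the coding sequence against one over the whole transcript, and the mix of p16INK4A and ARF transcripts behind it was not measured. The TE of CDKN1A was 0.673 against 1.30, a log2 difference of -0.95 just short of 2-fold. Against the proliferating column of run 1, where its TE was 1.60, the difference was past 2-fold. For both inhibitors with more RNA, the Ribo-Seq difference was thus the smaller or the opposite one. With the control of run 2, 2 of the 8 members passed 2-fold in TE, CDKN2A and CDKN2C, against 9.43% of all transcripts. The value of CDKN2C rests on levels at the floor. RB1 differed by 0.43 and RBL2 by 0.40 in TE, both within 2-fold.

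In transformation, 1 of the 8 members passed 2-fold in RNA, against 10.2% of all transcripts. This was CDKN1A, 2.14-fold lower, in the cells with the p53 knockdown. CDKN2C (1.86-fold), CDKN1B (1.65-fold), CDKN2D (1.64-fold) and RB1 (1.37-fold) lay below proliferation within 2-fold, RBL1 (1.16-fold) and RBL2 (1.06-fold) lay close to it, and CDKN2A was 1.87-fold higher, but at -0.44 on the log2 scale against the control of run 1. Compared with the proliferating column of run 1, CDKN1A differed by -0.01 in RNA and -0.59 in Ribo-Seq on the log2 scale, so its 2-fold call in transformation depends on the control of run 2. In Ribo-Seq, 3 members passed 2-fold and all were lower, against 12.6% of all transcripts: CDKN2C by at least 6.60-fold, CDKN2D by 3.12-fold and CDKN1A by 2.59-fold. In TE, 2 members passed 2-fold, against 3.41% of all transcripts: CDKN2A at -1.60, ranking 32 from the bottom, and CDKN2C, whose Ribo-Seq level was at the floor. The TE difference of CDKN2A was -0.79 against the control of run 1.

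**Figure D2:**
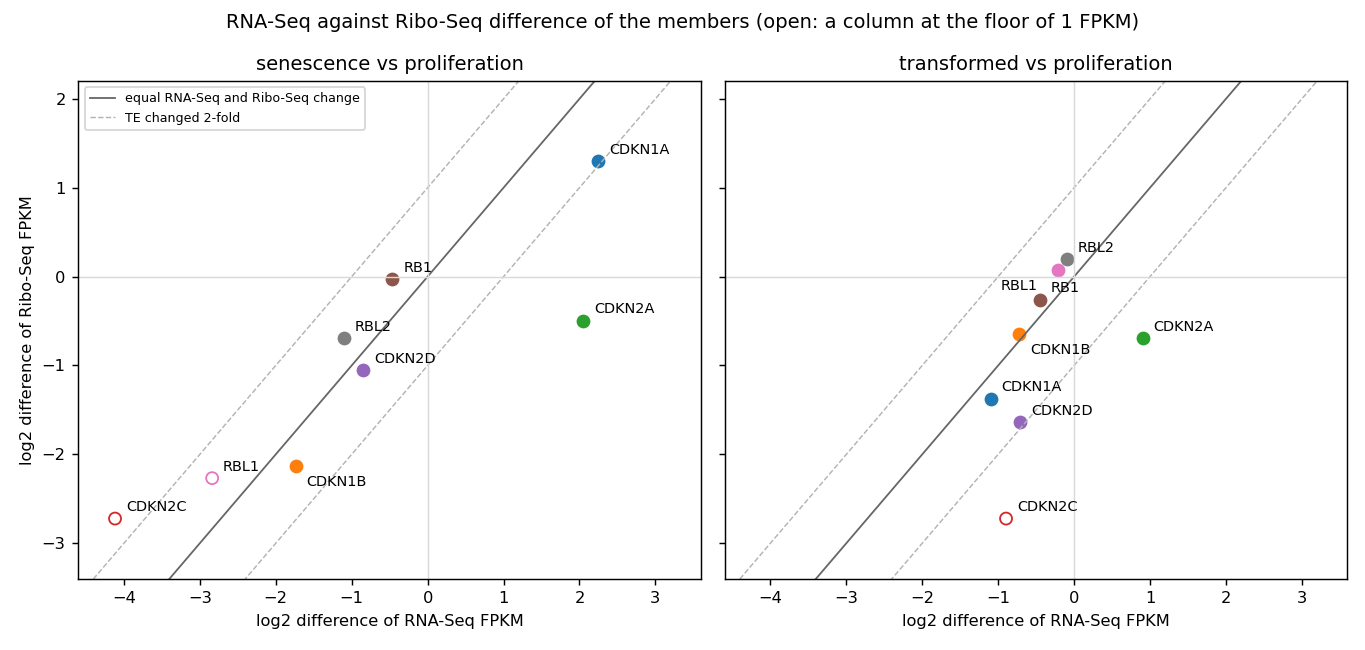
Log2 difference in RNA-Seq (x) against Ribo-Seq (y) for the 8 members in senescence (left) and transformation (right), both against run 2 proliferation, with the line of equal change and dashed lines where TE changed 2-fold. CDKN2A lies below the lower dashed line in both panels, at TE differences of -2.54 and -1.60, and open symbols mark genes with a level at the floor.

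Senescent and transformed cells share RASG12V and the sequencing run and differ in the knockdowns, SV40 small T, the way RAS was delivered and arrest. Between them, 6 of the 8 members passed 2-fold in RNA, against 23.2% of all transcripts. CDKN1A was 10.1-fold higher in senescence, 18 from the top of all transcripts, and CDKN2A was 2.21-fold higher. CDKN2C (at least 9.32-fold), RBL1 (at least 6.17-fold), CDKN1B (2.02-fold) and RBL2 (2.01-fold) were lower, the last pair barely past 2-fold and short of it (both at -0.93 on the log2 scale) when the differences were centred on the median of all transcripts. RB1 differed by 1.01-fold and CDKN2D by 1.10-fold. In Ribo-Seq, 3 members passed 2-fold, against 30.0% of all transcripts: CDKN1A was 6.37-fold higher, RBL1 5.07-fold lower and CDKN1B 2.80-fold lower. In TE, the 1 member past 2-fold, against 6.61% of all transcripts, was CDKN2C, for which 3 of the 4 levels were at the floor and the ratio cannot be read. CDKN2A TE was 1.92-fold lower in senescence than in transformation.

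**Figure D3:**
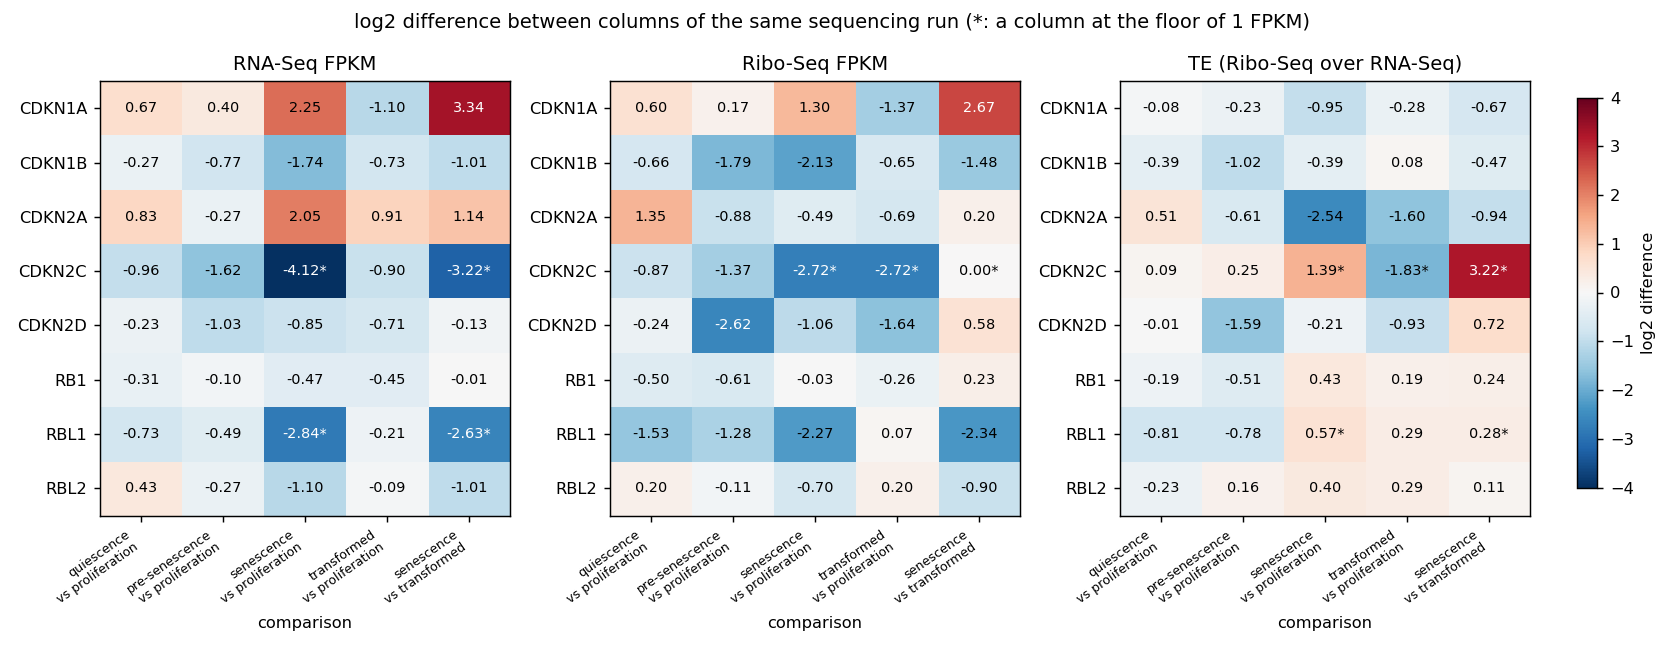
Log2 difference of RNA-Seq level, Ribo-Seq level and TE for each member (vertical) in each comparison (horizontal), red for higher and blue for lower in the first-named state, with an asterisk where a column was at the floor. Of the 4 comparisons with proliferation, senescence holds the highest RNA differences, 2.25 for CDKN1A and 2.05 for CDKN2A, and RB1 stays within 2-fold in every comparison shown.

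FPKM is scaled by the length of the 1 transcript taken for each gene, and the inhibitors are set against each other on that basis. What the choice of transcript and the unique alignment did to the shares below was not measured. The RNA levels of the 5 inhibitors summed to 147.2, 193.6 and 142.8 FPKM in run 1 and to 225.0 FPKM in proliferation, 855.2 FPKM in senescence and 120.0 FPKM in transformation in run 2. CDKN1A made up 54.9% of that sum in run 1 proliferation, 76.3% in run 2 proliferation, 66.5% in quiescence, 74.8% in pre-senescence and 66.9% in transformation, but 95.2% in senescence. In Ribo-Seq its share was 50.7% and 80.7% in the proliferating columns and 96.7% in senescence. CDKN1B held 27.6% in run 1 proliferation, 9.38% in run 2 proliferation and 1.04% in senescence. These shares cover the 5 inhibitors with an entry and not CDKN1C or CDKN2B. Among the pocket proteins, RB1 was the most abundant in every column, with 55.3% and 57.9% of the summed RNA level in the proliferating columns, 51.2% in quiescence, 52.5% in transformation and 74.5% in senescence, where the sum was 24.67 FPKM against 43.86 FPKM in proliferation of the same run.

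**Figure D4:**
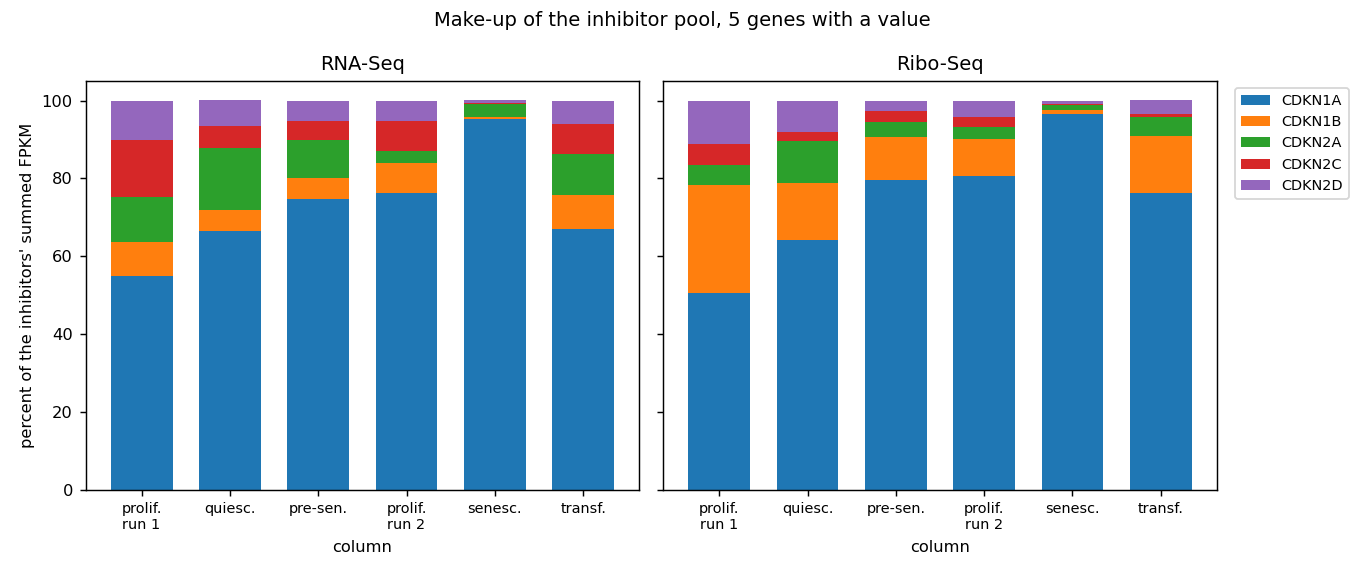
Share of each inhibitor in the summed FPKM of the 5 inhibitors with an entry, in percent, by column, for RNA-Seq (left) and Ribo-Seq (right). CDKN1A takes 95.2% of the RNA sum and 96.7% of the Ribo-Seq sum in senescence.

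The kinases that these inhibitors bind and the factors that the pocket proteins hold differed less as groups than the target genes: their median log2 RNA differences in senescence were -0.08 for the G1 cyclins and kinases, -0.48 for the E2F and DP factors and -0.89 for the DREAM and MuvB genes. Of all transcripts, 20.1% passed 2-fold in RNA in senescence in either direction, 10.2% in transformation and 3.77% in pre-senescence. Of 8 G1 cyclins and kinases, 7 had an entry. In senescence, CCND1, cyclin D1, was higher by 2.15-fold in RNA, at 1023 against 476.3 FPKM, CDK2 was lower by 5.18-fold, at 9.02 against 46.75 FPKM, and CCNE2, a cyclin E, was at the floor against 2.99 FPKM. The other 4, and all 7 in transformation, were within 2-fold in RNA. In quiescence, where 6.38% of all transcripts passed 2-fold, only CDK2 of the 7 did, 2.29-fold lower. Among the 10 E2F and DP factors, 1 was higher and 2 were lower in senescence: E2F5 by 2.16-fold, E2F1, which drives S-phase entry, by 6.08-fold, and E2F8 at the floor against 3.13 FPKM. E2F7, a repressor of the family, was 2.28-fold higher in pre-senescence and 3.52-fold higher in transformation, whereas E2F8, a repressor like it, was at the floor in both, at least 4.41-fold and at least 3.13-fold lower. In quiescence 3 of the 10 were lower, E2F1 (-1.49 on the log2 scale), E2F2 and E2F8, and E2F2 was also lower in pre-senescence, at the floor against 3.14 FPKM. Of 7 DREAM and MuvB genes with an entry, 3 were lower in senescence. These were FOXM1 (at least 35.1-fold) and MYBL2 (at least 27.8-fold), the activators that replace p130 on the MuvB core, and LIN54 (-1.81 on the log2 scale). LIN37, a core subunit, was 2.43-fold higher. In quiescence MYBL2 (3.12-fold) and FOXM1 (2.22-fold) were lower, and in pre-senescence MYBL2 alone (2.80-fold). In transformation none of the 7 passed 2-fold in RNA.

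The genes under the control of the RB family were lower in quiescence and senescence and close to proliferation in transformation. All 17 S-phase E2F targets were lower by 2-fold or more in RNA in senescence, with a median log2 difference of -3.10 against 0.00 for all transcripts, of which 20.1% passed 2-fold in either direction, as were all 13 G2/M genes with an entry, with a median of -4.63 (values at the floor taken at their bound). RRM2, a subunit of ribonucleotide reductase, was 55.8-fold lower, CCNA2, cyclin A, 42.4-fold lower, BIRC5 (survivin) 46.3-fold lower and PLK1, a mitotic kinase, 43.3-fold lower. In quiescence, 11 of the 17 and 10 of the 13 were lower by 2-fold or more, against 6.38% of all transcripts in either direction, with medians of -1.09 and -1.20, for example CDC20, the mitotic APC/C activator, by 3.40-fold. In pre-senescence, 2 of the 17 (TYMS and MCM6) and none of the 13 were lower by that much, against 3.77% of all transcripts in either direction, although all were below proliferation. In Ribo-Seq, 11 of the 17 and 5 of the 13 were lower by 2-fold or more in pre-senescence, with medians of -1.20 and -0.94, against 17.4% of all transcripts in either direction and a median of -0.10. In transformation, 1 of the 17 (MCM6) and none of the 13 passed 2-fold, against 10.2% of all transcripts. Among the members, CDKN2C, RBL1, CDKN1B and RBL2 were lower by 2-fold or more in senescence, whereas RB1 and CDKN2D were within 2-fold in RNA. Both groups were also lower in the proliferating column of run 2 than in that of run 1, 16 of 17 and 13 of 13 genes, with medians of -0.74 and -0.62.

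The p53 targets other than CDKN1A were compared in RNA. Of 20 listed, 17 had an entry. Between the proliferating columns, 5 of these were higher by 2-fold or more in run 2 and 1 was lower, against 7.83% of all transcripts in either direction. Their median log2 difference, run 2 minus run 1, was 0.29. In senescence 8 were higher by 2-fold or more and none lower, against 20.1% of all transcripts in either direction, with a median log2 difference of 0.80, and GDF15, a secreted stress factor, was 29.8-fold higher and GADD45A 3.13-fold higher. In transformation none was higher by 2-fold and 6 were lower, against 10.2% of all transcripts, with a median of -0.56, BTG2, an antiproliferative gene, by 4.30-fold and DRAM1, a lysosomal autophagy gene, by 2.53-fold. Between senescence and transformation 12 of the 17 were higher in senescence by 2-fold or more, against 23.2% of all transcripts in either direction. In quiescence 3 were higher, against 6.38%, among them FUCA1, a lysosomal fucosidase, by 2.45-fold. In pre-senescence none passed 2-fold in RNA, as was the case for CDKN1A, against 3.77% of all transcripts. In Ribo-Seq 2 were higher and 1 was lower there, against 17.4% of all transcripts in either direction.

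The regulators of p27 and of the INK4A/ARF locus were compared in the same way. Of the 6 genes of the p27 ubiquitin ligase and its CKS subunits, 3 were lower by 2-fold or more in senescence, against 20.1% of all transcripts in either direction, CKS1B by 5.39-fold and SKP2, the receptor subunit, by 2.29-fold among them, while CDKN1B RNA was itself lower. SKP2 alone of the 6 also passed 2-fold in quiescence (2.11-fold lower) and in pre-senescence (2.18-fold lower), against 6.38% and 3.77% of all transcripts. Of 12 regulators of the INK4A/ARF locus, 2 were lower by 2-fold or more in senescence, a share no higher than the 20.1% of all transcripts: EZH2, the Polycomb methyltransferase, was 8.27-fold lower and ID1, an antagonist of ETS factors, 5.59-fold lower. EZH2 (2.50-fold) and ID1 (10.6-fold) were also lower in quiescence, where 6.38% of all transcripts passed 2-fold in either direction. In transformation ETS2, an activator of the locus, was 2.91-fold higher and no regulator was lower by 2-fold. That is 1 of the 12, a share no higher than the 10.2% of all transcripts.

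**Figure D5:**
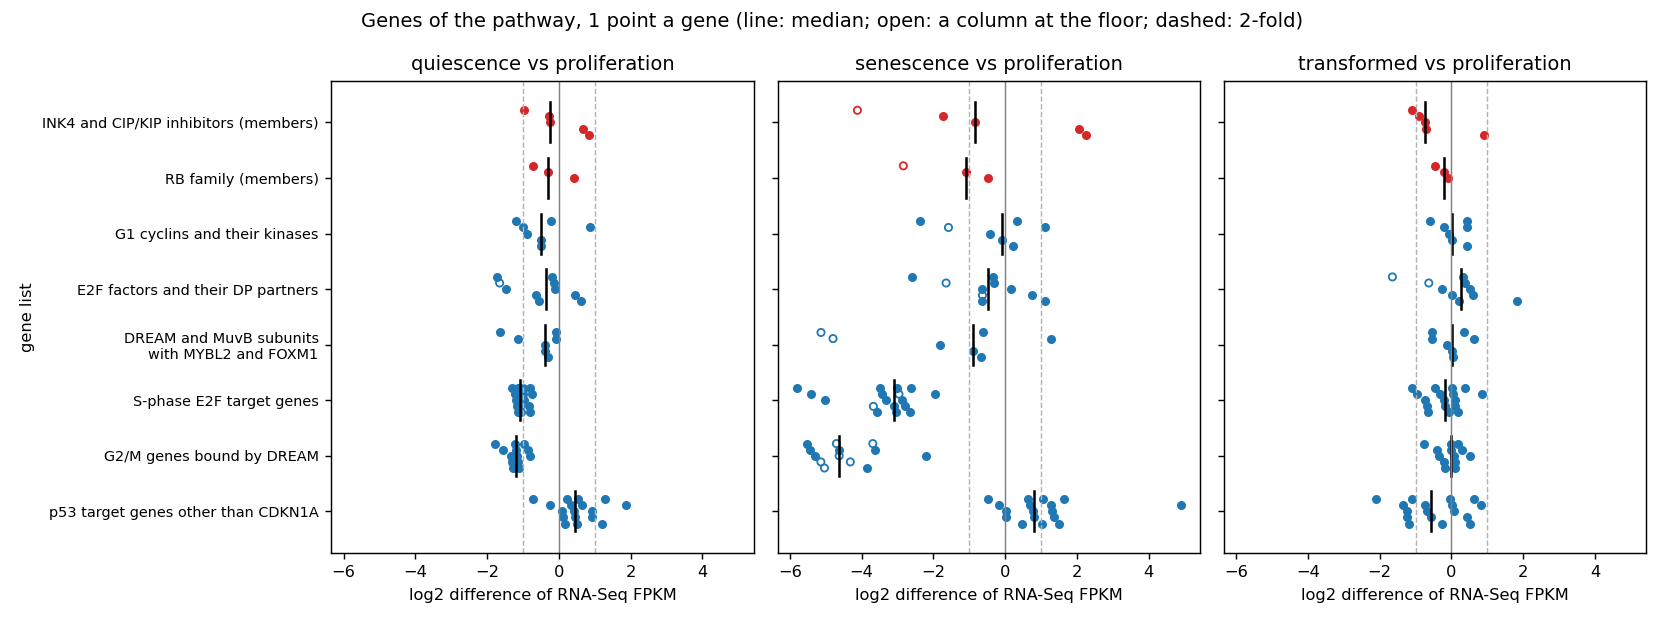
Log2 difference of RNA-Seq level for each gene (points) of 8 gene lists in quiescence, senescence and transformation against proliferation of the same run, with the members in red, list medians as black lines, 2-fold as dashed lines and open points where a column was at the floor. In senescence the S-phase and G2/M genes centre on -3.10 and -4.63 and the p53 targets on 0.80, while the inhibitors lie on both sides of 0.

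The transcripts with the profile most like each member were sought by the Pearson r of log2 FPKM over the 12 columns, each assay centred on its own mean, among 4744 transcripts whose RNA spanned over 2-fold. The 12 points are the 6 columns in each of the 2 assays, so they are not independent, and r is given as a description. RBL1 had the closest partners, RFC4 (0.992), a replication factor subunit, CDKN3 (0.987), a phosphatase of CDKs, and SMC4 (0.987), a condensin subunit. CDKN1A was closest to KDELR3 (0.967), FAM8A1 (0.963) and AK3 (0.955). CDKN1B was closest to APOLD1 (0.967), PHF13 (0.965) and SARM1 (0.950). CDKN2C was closest to C9orf140 (0.974), CALHM2 (0.957) and KIRREL3 (0.946), and CDKN2D to PIM1 (0.974), SIRT5 (0.901) and PSAT1 (0.894). RBL2 was closest to PDGFRB (0.967), the PDGF receptor gene of fibroblasts, DOCK1 (0.945) and COL6A3 (0.939). CDKN2A had no partner above 0.878, reached by ISG15, an interferon-induced gene. RB1 was left out because its RNA spanned less than 2-fold.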

How the data were processed

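RNA-Seq and Ribo-Seq were done on BJ cells in 5 states. The authors aligned 50-nucleotide reads with Bowtie to 1 representative Ensembl transcript per gene (the submitters' processing notes name hg19), kept unique alignments, and deposited FPKM values, over the whole transcript for RNA-Seq and over the coding sequence for Ribo-Seq, with values under 1.0 set to 1.0. How replicate libraries were combined is not stated, and FPKM does not give the read count behind a value (the study's library totals were not used here), so no counting error or interval was attached. Log2 differences between columns of the same sequencing run were computed in python 3.11.15 with pandas 2.3.3 and numpy 2.4.6 and called at 2-fold. The calculation was run on simulated data with planted folds free of noise, which checks the arithmetic only. No test was possible with 1 column per state and run. The between-run spread is the SD of the log2 difference between the proliferating columns over the 500 transcripts nearest in level. The sliding cut-off took 1.75 SDs of each comparison's own differences in 20 bins of level. Alternatives were a pseudocount of 1.0, centring on the median, values above the floor only, the control of the other run and the sliding cut-off. From each pathway list, the 2 largest rises and falls past 2-fold per comparison were eligible to be named, and a selection of these is given. LIN54 in senescence and E2F1 in quiescence were named besides these. For each member that spanned over 2-fold, the 3 transcripts with the highest r were named. The members and lists were chosen with earlier results of these data known. Promoters come from RefSeq. The level of 1 targeted gene is not reported here.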

Additional observations from a re-analysis of the deposited data

Results flagged for a closer look

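CDKN1A moved in opposite directions in senescent and in transformed cells, both under RASG12V. These states differ in the knockdowns of p53 and p16INK4A, in SV40 small T, in the way RAS was delivered and in arrest, which cannot be told apart here. Against the shared proliferating column of run 2, it was higher in senescence and lower in transformation by 2-fold or more, in both assays. By the sliding cut-off, its difference passed in RNA in both states but in Ribo-Seq in neither. Senescence minus transformation was 3.34 on the log2 scale in RNA (814.4 against 80.30 FPKM) and 2.67 in Ribo-Seq (547.8 against 85.98 FPKM). Each state was 1 column, so the difference was not tested. The CDKN1A level of the shared control was itself 2.12-fold higher in RNA than that of the run 1 control, against which CDKN1A in transformation was at -0.01 in RNA and -0.59 in Ribo-Seq on the log2 scale.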

How the results depend on the processing

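Counts are of members past 2-fold, out of 8. With the proliferating column of the other run, all 12 counts changed: in RNA from 0 to 1 in quiescence, from 2 to 3 in pre-senescence, from 6 to 5 in senescence and from 1 to 2 in transformation, in Ribo-Seq from 2 to 3, 4 to 2, 5 to 6 and 3 to 4 in the same order, and in TE from 0 to 1, 2 to 1, 2 to 4 and 2 to 3. CDKN1B TE in pre-senescence then reversed, from -1.02 to 0.86. RB1, within 2-fold in every main comparison, then passed it in Ribo-Seq in quiescence (-1.06) and in pre-senescence (-1.17). The cause of these changes was not tested. With the sliding cut-off, the RNA count became 1 in quiescence, 3 in senescence and 2 between senescence and transformation, the Ribo-Seq count became 2 in pre-senescence, 0 in senescence, 2 in transformation (without CDKN1A) and 1 between senescence and transformation, and the TE count became 1 in pre-senescence. A pseudocount of 1.0 gave 1 in RNA in pre-senescence, and centring on the median gave 1 in TE in pre-senescence, where values lay near 2-fold. Both settings took the RNA count between senescence and transformation from 6 to 4 (CDKN1B and RBL2) and the Ribo-Seq count in senescence from 5 to 4 (CDKN2D), and the pseudocount took the RNA count in senescence to 5. With values above the floor only, members at the floor dropped out: the TE counts became 1 in senescence, 1 in transformation and 0 between them, the RNA counts 4 in senescence and 4 between them, and the Ribo-Seq counts 4 in senescence and 2 in transformation. Of the 96 single values of the members, 24 changed sign with the other control, all but 1 of them from within 2-fold, including CDKN1A RNA in quiescence and pre-senescence and CDKN2A RNA in pre-senescence (from -0.27 to 1.08) and transformation. Beside the reversed value, 38 moved by more than the between-run spread with that control, 2 moved by more than it with the pseudocount, and none did with centring or above the floor. Leaving out a replicate was not run, and no paired analysis was possible because each state had 1 column per assay and run. No read count stands behind each FPKM value here, which limits what low levels such as those of CDKN2C and RBL2 can show.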
